A study of Rattus norvegicus with 24 samples.

Results

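The genes described here encode nuclear subunits of the mitochondrial respiratory chain, grouped by complex, in peripheral blood mononuclear cells (PBMC) of female Wistar rats. A gene was taken when a probe set of the Affymetrix Rat Genome 230 2.0 array named that gene alone and its symbol began with Ndufa, Ndufb, Ndufc, Ndufs, Ndufv, Uqcr, Cox4 to Cox8 or Atp5, or was Sdha, Sdhb, Sdhc, Sdhd or Cyc1. Genes beginning with Ndufaf were left out, and the brightest probe set stood for each gene. The rule found 81 of the 14217 genes that had a probe set of their own, and 78 of them were subunits: 34 of complex I, 4 of complex II, 8 of complex III, 17 of complex IV and 15 of complex V. The other 3 members were Atp5if1, the inhibitor protein of ATP synthase, Cox7a2l, a factor that joins complexes III and IV, and the pseudogene Cox6c-ps1. Genes of the chain encoded by mitochondrial DNA do not fall under the rule.

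All groups held 2 arrays, each of a separate rat, and all were sampled under anaesthesia with RNA extracted together. Healthy rats without arthritis (NOCIA, labelled NORA) were sampled at baseline, at 1 hour and at 34 days. All other rats carried collagen-induced arthritis (CIA, labelled RA), raised with bovine type II collagen in Freund's adjuvant. CIA rats were sampled untreated at baseline, and at 1 hour and 34 days in each of 4 arms. Mechanical stimulation (MS, labelled AP or AP/MEC) was needle puncture with twirling at points on the back and the leg. Methotrexate (MTX), an antifolate drug for rheumatoid arthritis, was given weekly into the peritoneum. Placebo rats (PLA) received saline by the same route. Anaesthesia rats (ANE) received isoflurane at sampling and no other therapy, while MS, MTX and PLA rats were sampled under ether. The sources used here do not state the rats' age. The study asked how these arms differ from untreated arthritis and from each other. Each group was thus 2 rats of 1 strain and sex.

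The respiratory chain passes electrons from NADH (complex I) and succinate (complex II) through complex III to oxygen at complex IV, and complex V uses the proton gradient so formed to make ATP. Complex I is built of catalytic core subunits and many small accessory subunits, while complex II is also an enzyme of the citric acid cycle. Lymphocytes and monocytes contain many mitochondria, whereas platelets are small and carry few, and activated lymphocytes raise glycolysis alongside respiration.

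Values are log2 expression, as deposited, and a difference is a log2 difference with its standard error (SE). Tests were limma fits over all 12 groups, with Benjamini-Hochberg adjustment over 20690 probe sets, and a member was called at an adjusted p under 0.05. Each SE and p used a spread shared by all 12 groups, not that of the groups compared. The SD over all probe sets tested of the difference between the rats of a group was 0.836 in MS at 34 days. At CIA baseline it was 0.286, so the SE can understate the spread of the MS rats. Of the 81 members, 77 passed the filter on low values, among them 74 subunits. The 4 below it were all in complex IV: Cox4i2 (3.83 to 4.57 over the 24 arrays), Cox6a2 (3.70 to 4.36), Cox7a1 (4.24 to 5.40) and Cox7b2 (2.79 to 3.25), which are isoforms known from lung, muscle, heart or testis. Values over the whole array ran from 2.18 to 15.02, so these 4 lay near its lower end.

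Sequence before the start sites is shown for 4 members whose level differed between groups, because the chain's nuclear genes are known to share factors such as NRF1, GABP and YY1. The 250 bases before the start were taken from RefSeq (GRCr8), written 5' to 3' on the gene's strand, with the motifs found in capitals. Ndufs1 lies at chr9:72040286-72073605 on the minus strand, and its upstream bases at chr9:72073606-72073855 held CTTCCGG, the ETS/GABP letters on the opposite strand. Sdha lies at chr1:30764553-30789523 on the plus strand, and its upstream bases at chr1:30764303-30764552 held CCAAT reversed, ATTGG. Ndufa11 lies at chr9:1637614-1641673 on the plus strand, and its upstream bases at chr9:1637364-1637613 held the NRF1 core in a pair of overlapping copies. Ndufa7 lies at chr7:15311446-15324226 on the plus strand, and its upstream bases at chr7:15311196-15311445 held none of the 6 motifs searched.
Ndufs1: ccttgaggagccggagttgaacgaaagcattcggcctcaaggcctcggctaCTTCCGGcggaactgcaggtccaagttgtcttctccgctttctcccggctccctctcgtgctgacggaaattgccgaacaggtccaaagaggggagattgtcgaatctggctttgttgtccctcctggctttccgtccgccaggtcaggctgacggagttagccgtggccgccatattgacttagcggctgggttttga
Sdha: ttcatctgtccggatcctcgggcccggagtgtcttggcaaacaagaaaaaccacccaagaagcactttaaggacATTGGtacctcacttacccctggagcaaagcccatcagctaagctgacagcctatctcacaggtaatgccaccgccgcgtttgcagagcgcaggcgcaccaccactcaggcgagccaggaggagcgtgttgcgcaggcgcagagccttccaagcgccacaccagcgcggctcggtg
Ndufa11: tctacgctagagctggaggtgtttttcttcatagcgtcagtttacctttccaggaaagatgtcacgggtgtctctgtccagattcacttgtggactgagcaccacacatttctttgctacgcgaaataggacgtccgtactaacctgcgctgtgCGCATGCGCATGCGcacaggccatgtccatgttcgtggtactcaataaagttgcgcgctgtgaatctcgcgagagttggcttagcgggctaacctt
Ndufa7: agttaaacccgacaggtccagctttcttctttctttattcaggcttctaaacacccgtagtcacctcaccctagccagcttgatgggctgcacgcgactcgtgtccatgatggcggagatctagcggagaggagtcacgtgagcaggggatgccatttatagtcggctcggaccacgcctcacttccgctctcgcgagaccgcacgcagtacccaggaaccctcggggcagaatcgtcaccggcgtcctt

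The 6 motifs were counted on both strands, from 250 bases before to 50 after the start, in 72 of 81 members and in 27457 promoters of the same table. AAGATGGC (YY1) stood in 22.2% of the member promoters and 3.44% of all promoters, and in 8 of 32 for complex I. CCGGAAG (ETS/GABP) stood in 27.8% of members and 9.22% of all. CGCATGCG (NRF1 core) stood in 8.33% of members and 1.81% of all, with 4 of the 6 such members in complex V. AAGGTCA (ERR) stood in 15.3% of members and 4.37% of all. GGGCGG (Sp1) stood in 43.1% against 34.9%, and CCAAT (NF-Y) in 34.7% against 37.7%. A match describes the letters only, and 12 members had none.

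The level of each complex was followed as the median over its subunits, each subunit being centred on its mean over the 24 arrays. Leaving aside the first MS rat at each time, the other 22 arrays had medians between -0.12 and 0.18 for complex I, -0.24 and 0.26 for complex II, -0.18 and 0.23 for complex III, -0.16 and 0.15 for complex IV and -0.20 and 0.22 for complex V. The first MS rat at 34 days had medians of -0.60 for complex I, -1.06 for complex II, -0.74 for complex III, -0.14 for complex IV and -0.62 for complex V. The second MS rat had medians of -0.02, 0.07, -0.01, 0.02 and -0.01 in the same order. The first MS rat at 1 hour had -0.27, -0.70, -0.43, 0.01 and -0.32. The low medians thus came from 1 rat at each MS time and lay in complexes I, II, III and V, while complex IV stayed within the range of the other 22 arrays. The median over all probe sets in the first MS rat at 34 days was -0.24. The subunits also spread more widely in that rat, with SDs over the centred subunits of 0.53, 0.33, 0.56, 0.77 and 0.49 for complexes I to V, against 0.18, 0.19, 0.10, 0.08 and 0.11 in the second MS rat.

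**Figure D1:**
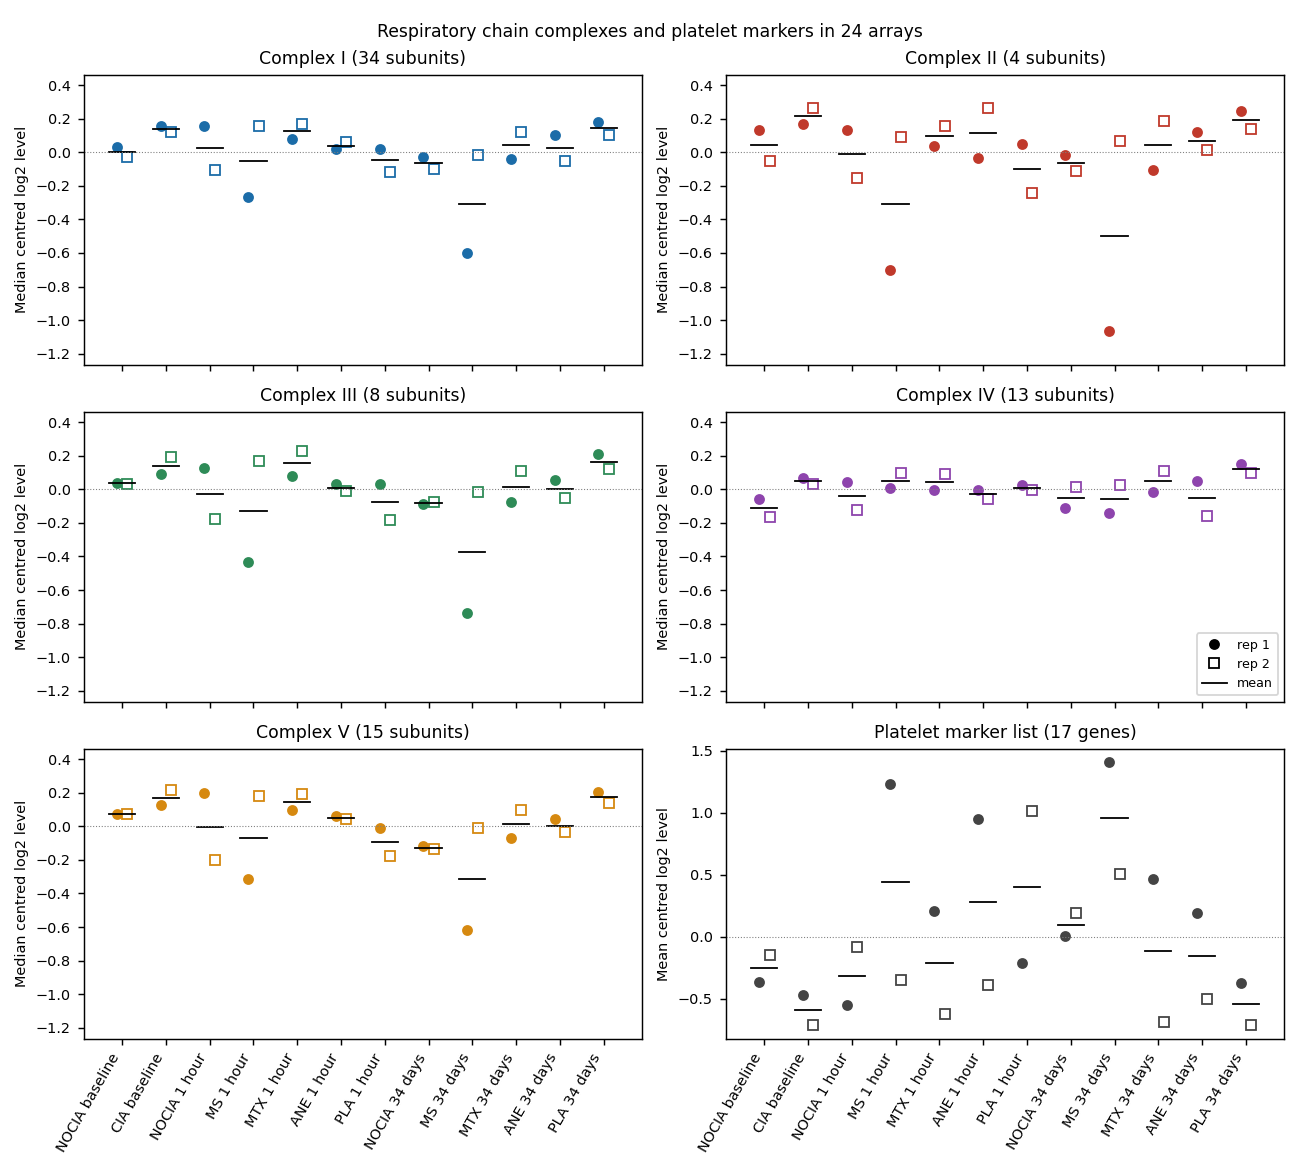
Median centred log2 level of the subunits of complexes I to V, and mean of the platelet marker list, by group. Filled circles are the first rat, open squares the second and bars their mean. The first MS rat at 34 days stands lowest for complexes I, II, III and V and highest for the platelet list (1.41).

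The labelled cell type was checked against markers, and the T cell genes Cd3d (9.96 to 12.02) and Cd3e (9.74 to 11.97), the B cell gene Cd79b (7.29 to 10.16), the monocyte gene Cd14 (7.53 to 12.21) and the NK gene Klrd1 (9.14 to 12.02) were measured in all arrays. The platelet gene Pf4 (14.22 to 14.71) and the erythroid gene Hbb (14.56 to 14.86) were also measured in all of them. Means of the marker lists differed between the 2 MS rats at 34 days. In bulk PBMC, fewer cells of a type and less RNA per cell cannot be told apart. The mean of 17 platelet genes, centred in the same way, was 1.41 and 0.51 in the MS rats at 34 days, 1.23 and -0.35 at 1 hour, and -0.47 and -0.71 at CIA baseline, and over all arrays it ran from -0.71 to 1.41. Against CIA baseline all 17 were higher at MS 34 days (median 1.78), with 0 called by limma and 14 at an unadjusted p under 0.05 (13.5% of all probe sets). The 17 T cell genes were at -1.40 and -0.16 and the 11 monocyte genes at -1.25 and 0.00 in the same MS rats. There the 16 NK and cytotoxic genes were at -1.33 and -0.51, against 0.44 and 0.47 at CIA baseline, and the 8 B cell genes at -1.27 and -0.70, against 0.25 and 0.28. All 16 NK genes were below CIA baseline (median -1.30), with 10 at an unadjusted p under 0.05 (23.6% of all probe sets) and 1, Klre1 (-2.45), called. Their part in the results for the chain was not tested. The neutrophil list ran from -1.24 to 1.80 and the erythroid list from -0.85 to 0.88 over the 24 arrays, and of these Xk, an erythroid gene, was called higher in MS at 34 days (3.31, SE 0.94). Of the 8 B cell markers limma called 6 lower in MS at 34 days (6.96% of all probe sets were called) and 7 in NOCIA over 34 days (12%), and without the first MS rat 0 probe sets were called in the MS comparison. RNA quality was compared by the 3' minus 5' probe sets, which for Gapdh differed by 0.01 to 0.20 and for Actb by 0.36 to 0.845 over the 24 arrays. For Actb both MS rats at 34 days were the lowest, with 0.361 and 0.362 against 0.545 and 0.592 at CIA baseline, and the second NOCIA baseline rat was the highest for both genes (0.845 for Actb and 0.198 for Gapdh). Healthy rats at 34 days had 0.652 and 0.637 for Actb, after 0.561 and 0.845 at baseline. The part of these values in the results was not tested.

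Ndufs1, the largest core subunit of complex I, had the widest range of group means of the 77 members and was the only one of 77 members called by the F-test over the 12 groups (F = 6.65, adjusted p = 0.0328). The F-test called 2.26% of all probe sets, and it called 0 members with any 1 of 15 of the 24 arrays left out, among them each baseline array and both NOCIA arrays at 34 days. Ndufs1 had its highest group means at the baselines, with 7.93 and 8.08 in healthy rats and 7.37 and 7.77 in CIA rats. In NOCIA it was 7.86 and 7.04 at 1 hour and 6.56 and 6.13 at 34 days. At 34 days it was 5.27 and 6.17 in MS, 6.57 and 6.48 in MTX, 6.88 and 7.36 in ANE and 6.51 and 6.72 in PLA. After 1 hour the pairs were 6.33 and 7.25 (MS), 7.20 and 7.57 (MTX), 7.36 and 7.20 (ANE), and 6.85 and 6.54 (PLA). All 4 baseline arrays lay above every 34-day array, but barely so for the second ANE rat (7.36, against 7.37 in the first CIA baseline rat). The share of all probe sets that separate in this way was not counted, and Ndufs1 was singled out by its F on these same values. The lowest of all was the first MS rat at 34 days.

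**Figure D2:**
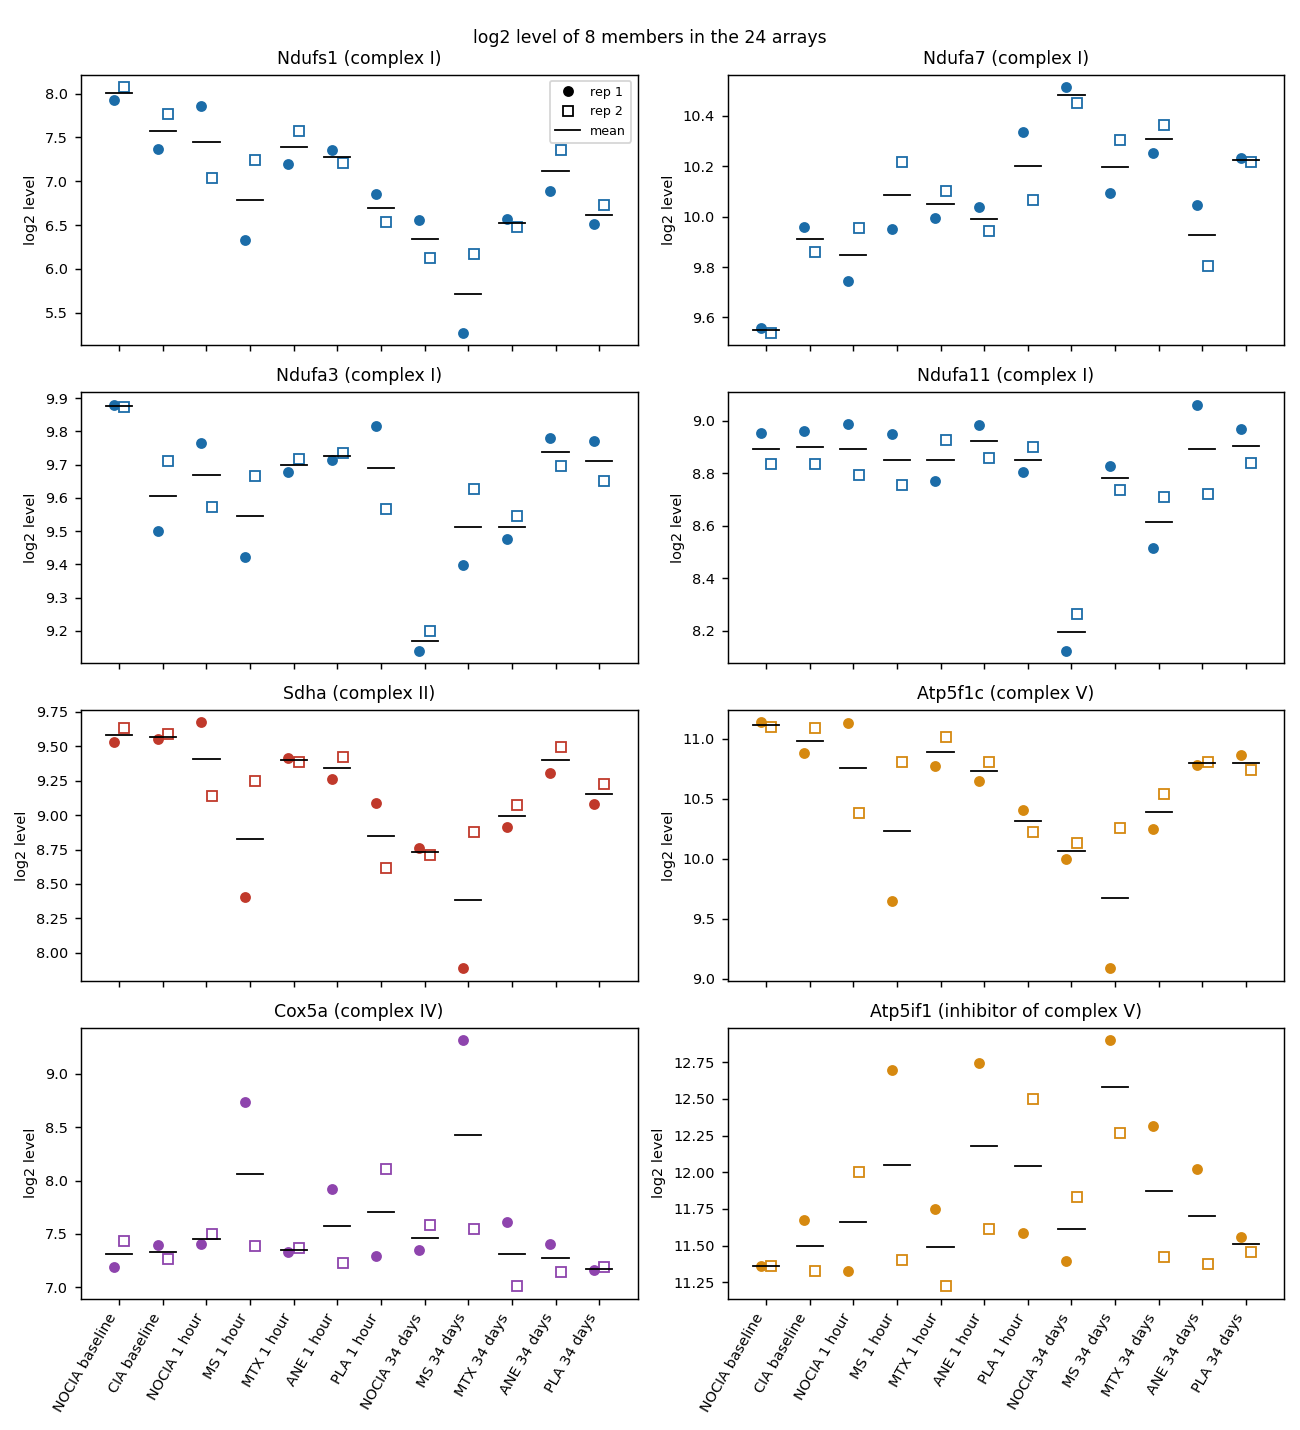
Log2 level of 8 members by group, 2 rats each (filled circle, first rat; open square, second), with the mean as a bar. The lowest value of Ndufs1 is in MS at 34 days (5.27), and Ndufa7 is highest in NOCIA at 34 days.

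The arms at 34 days were compared with CIA baseline, a comparison that holds therapy and time together. Against CIA baseline, MS at 34 days had the lower level for 61 of 74 subunits and the higher for 13, where 41.5% of all probe sets were higher. Limma called 5 of the 77 members, all lower (6.49%), close to the 6.96% of all probe sets called. At an unadjusted p under 0.05, 33 of the 77 members were lower (42.9%) where 23.6% of all probe sets were, and 3 were higher (3.90%) where 13.5% were. In complex I, Ndufs1 was lower by 1.85 (difference -1.85, SE 0.34, adjusted p = 0.0233). Ndufb1, a small accessory subunit of the membrane arm (GRCr8 chr6:126880537-126888935), was at 10.98 and 10.88 at CIA baseline and 9.41 and 10.33 in MS, a difference of -1.05 (SE 0.29, adjusted p = 0.0442). Ndufb2, another accessory subunit of that arm (chr4:69334307-69341394), was at 10.13 and 10.05 and then 9.01 and 9.65, a difference of -0.76 (SE 0.20, adjusted p = 0.0424). Both MS rats lay below both CIA rats for these 3, as for 46 of the 77 members (38.4% of all probe sets), and above them for 11 (25.2%). The first MS rat was the lower of the pair for all 3. The median over the 34 complex I subunits was -0.47, and 29 were below 0.

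In complex II, Sdha, the flavoprotein that oxidizes succinate, was at 9.55 and 9.59 in CIA baseline and 7.89 and 8.88 in MS. Its arrays did not overlap, and the difference was -1.19 (SE 0.30, adjusted p = 0.0404). The iron-sulfur subunit Sdhb was at 10.60 and 10.61 and then 9.38 and 10.46, a difference of -0.68 that did not pass (adjusted p = 0.132). The membrane anchors Sdhc and Sdhd had differences of -0.73 (adjusted p = 0.112) and -0.32 (adjusted p = 0.295). The other probe set of Sdhd, with a mean of 9.99, had a difference of only -0.04 (adjusted p = 0.901). By the brightest probe set, the first MS rat was the lowest of the 24 arrays for each of the 4 genes.

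In complex III limma called 0 of 8 and 3 were lower at an unadjusted p under 0.05 (23.6% of all probe sets), and all 8 were below 0 (median -0.46). Cyc1, cytochrome c1, was at 9.87 and 9.91 in CIA baseline and 8.56 and 9.53 in MS (difference -0.84, adjusted p = 0.0651), and the core subunit Uqcrc2 had a difference of -0.88 (adjusted p = 0.0945). Neither passed the test.

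In complex IV the median was -0.04 against -0.16 over all probe sets, 7 of 13 were below 0, and differences ran from -0.69 for Cox5b to 1.10 for Cox5a. The median was 0.06 with no filter, 0.11 relative to the median of all probe sets, -0.13 with Ndufa4 and Ndufa4l2 counted in complex I and -0.15 without the second MS rat, so that it had no settled sign. Limma called 0 of the 13. At an unadjusted p under 0.05, 4 were lower (23.6% of all probe sets) and 1 higher (13.5%). Cox5a was at 7.39 and 7.26 in CIA baseline and 9.31 and 7.55 in MS, so its difference (SE 0.48, adjusted p = 0.113) rested mostly on the first rat. Another probe set, which names Cox5a together with a second gene, was left out by the rule and its values were not examined. Cox7b had a difference of -0.44 (adjusted p = 0.109). Of the isoform pairs, Cox4i1 had -0.50 (adjusted p = 0.128), Cox6a1 0.28 (adjusted p = 0.386), Cox6b1 0.09 (adjusted p = 0.647) and Cox6b2, an isoform known from testis, -0.41. Ndufa4 had 0.28 (adjusted p = 0.374), its relative Ndufa4l2 0.55, Cox8a -0.13 and Cox8b 0.11. Cox6b2, Ndufa4l2 and Cox8b were near the filter, with medians over the 24 arrays of 4.73, 4.71 and 5.11. Ndufa4l2 was highest in the first MS rat at 34 days (5.72).

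In complex V, Atp5f1c, the gamma subunit that forms the rotor's shaft (chr17:73333584-73355872), was at 10.88 and 11.09 in CIA baseline and 9.08 and 10.25 in MS. The groups did not overlap, with a difference of -1.32 (SE 0.36, adjusted p = 0.0449). Atp5mk, a small membrane subunit, had -0.74 (adjusted p = 0.0830). The inhibitor Atp5if1 lay the other way, at 11.67 and 11.32 in CIA baseline and 12.90 and 12.27 in MS (difference 1.09, adjusted p = 0.113). Of its 2 other probe sets, the one above the filter had 0.70, in the same direction. Ndufa1, an accessory subunit of complex I, was likewise at a higher level in both MS rats (difference 0.77, adjusted p = 0.0822).

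Cox5a, Atp5if1 and Ndufa1 were highest in the 4 arrays with the highest platelet means: the first MS rats at 34 days (platelet mean 1.41) and 1 hour (1.23), the second PLA rat at 1 hour (1.01) and the first ANE rat at 1 hour (0.95). In that order Cox5a was at 9.31, 8.73, 8.11 and 7.92, against at most 7.62 in the other 20 arrays. Atp5if1 was at 12.90, 12.70, 12.50 and 12.74, against at most 12.32, and Ndufa1 at 13.87, 13.68, 13.30 and 13.32, against at most 13.21. The first MS rat at 34 days held the highest value for 21.4% of all probe sets, and the share of all probe sets highest in these 4 arrays was not counted. The 3 members were picked out after their values were seen, and the part of the platelets in their levels was not tested.

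The array of the first MS rat at 34 days stood apart from its replicate. It held the lowest of 24 values for 47 of 77 members and for 30.8% of all probe sets: 22 of 34 in complex I, 4 of 4 in II, 5 of 8 in III, 4 of 13 in IV and 11 of 15 in V, besides Cox7a2l. It held the highest value for 7 members, among them Cox5a, Ndufa1 and Atp5if1, against 21.4% of all probe sets. Without it, or without either CIA baseline rat, 0 members were called. Without the second MS rat 49 were, the lone array being assumed to vary like the other groups. Without the first MS rat the difference of Ndufs1 was -1.40, of Sdha -0.69 and of Atp5f1c -0.73. These 3 kept their direction in the second rat, and the medians over the complexes were then -0.15 (I), -0.14 (II), -0.13 (III) and -0.17 (V).

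**Figure D3:**
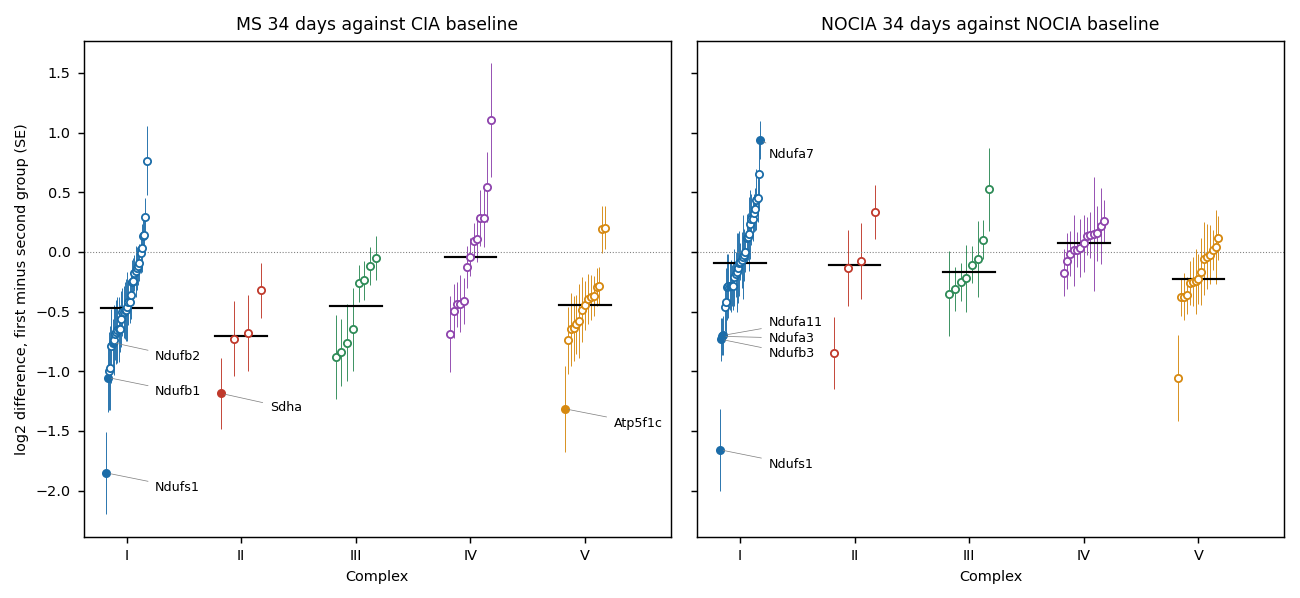
Log2 differences (points, with SE) of each tested subunit by complex, for MS 34 days against CIA baseline and NOCIA 34 days against NOCIA baseline. Filled points are called, and black lines are complex medians. In MS the medians are -0.47, -0.70, -0.46, -0.04 and -0.45 for I to V, and in NOCIA Ndufa7 stands highest and Ndufs1 lowest.

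In MTX, ANE and PLA at 34 days against CIA baseline, limma called 0 members in each and 0% of all probe sets. In MTX, 3 members were at an unadjusted p under 0.05, where 5.85% of all probe sets were: Ndufs1 (difference -1.04, SE 0.34), Ndufa7 (0.40, SE 0.16) and Atp5mpl (-0.34, SE 0.16). In PLA, Ndufs1 alone was (-0.95, SE 0.34) against 4.85% of all probe sets. In ANE none was, against 1.48%. ANE had 67 of 74 subunits below CIA baseline and 7 above, with a median of -0.12, where 44.4% of all probe sets were above. For 41 of 77 members both ANE arrays were under both CIA arrays, against 28.8% of all probe sets, and for 1 above, against 18.7%. In the same comparison 16 of 17 platelet genes (median 0.44), 8 of 9 neutrophil genes (0.82) and 7 of 8 B cell genes (0.35) were above CIA baseline, and 1 of 17 T cell genes (-0.27) and 1 of 16 NK genes (-0.53). Their part in the shift was not tested. Between therapies at 34 days, limma called 0 members for MS against PLA, MTX against PLA and MS against MTX, and 0% of all probe sets. At an unadjusted p under 0.05, MS against PLA had 29 members lower (13.4% of all probe sets) and 3 higher (9.73%), among them Ndufa8 (-0.65), Ndufb2 (-0.66), Sdhb (-0.85), Sdha (-0.77), Cyc1 (-0.80), Uqcrc1 (-0.75), Cox5b (-0.80), Atp5f1c (-1.13) and Atp5f1b (-0.79) below PLA and Cox5a (1.26) above it. MS against MTX had 11 lower (8.34%) and 1 higher (6.06%), among them Ndufs3 (-0.82), Ndufb1 (-0.70), Cyc1 (-0.64) and Cox5a (1.12). MTX against PLA had Cox8b alone (difference -0.44, where 0.739% of all probe sets were). Cox8b was near the filter, with its lowest value (4.83) in the second MTX rat at 34 days. MTX against PLA had 64 of 74 subunits below 0 and 10 above (median -0.14), where 50.1% of all probe sets were above. Both MTX arrays were below both PLA arrays for 30 of 77 members (18.1% of all probe sets) and above them for 4 (18%). Without the first MS rat limma called 0 members for MS against PLA and for MS against MTX, and without the second 49 and 36, the lone array being assumed to vary like the other groups. The medians of MS against PLA were -0.44, -0.76, -0.50, -0.25 and -0.50 for complexes I to V and without the first MS rat -0.18, -0.21, -0.15, -0.08 and -0.17. With no filter that of complex IV was -0.02. The comparisons with CIA baseline share its 2 rats, and those with PLA share the PLA rats.

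In healthy rats over 34 days, 5 members were called, all in complex I, which held 34 of the 74 subunits tested. Of the 77 members 1.30% were called higher and 5.19% lower, a smaller share than the 12% of all probe sets called. This comparison shows what differed over the same time without arthritis or therapy, between separate rats. Ndufa7, an accessory subunit, was at 9.56 and 9.54 at baseline and 10.52 and 10.45 at 34 days. It rose by 0.94 (SE 0.16, adjusted p = 0.00182). Its other probe set lay near the filter (mean 4.71), and the difference of 0.51 there did not pass the test (adjusted p = 0.115). Ndufs1 fell by 1.66 (SE 0.34, adjusted p = 0.00569), from 7.93 and 8.08 to 6.56 and 6.13. For both, the 2 rats of a group lay closer to each other than to the other group. Ndufa3, an accessory subunit (chr1:74512928-74515558), was at 9.88 and 9.87 and then 9.14 and 9.20 (difference -0.71, SE 0.15, adjusted p = 0.00771). Ndufa11, an accessory membrane subunit, was at 8.95 and 8.84 and then 8.12 and 8.27 (-0.70, SE 0.16, adjusted p = 0.0105). Ndufb3, an accessory subunit of the membrane arm (chr9:67623417-67633629), was at 10.78 and 10.71 and then 9.98 and 10.04 (-0.73, SE 0.18, adjusted p = 0.0151). Baseline and 34 days did not overlap for these 5. Over all 77 members both 34-day arrays were below both baseline arrays for 33 (34.3% of all probe sets) and above them for 21 (31.7%). With any single array of the comparison left out, 1 to 3 members were called, Ndufa7 each time. Ndufs1 was not called without the second baseline rat (adjusted p = 0.0597) or the second rat at 34 days (adjusted p = 0.0606). Ndufa3 and Ndufa11 were called in 1 of these 4 fits, without the second rat at 34 days, and Ndufb3 in 0. Sdha (-0.85, adjusted p = 0.0800), Atp5f1c (-1.05, adjusted p = 0.0703) and Atp5mf, a small membrane subunit of complex V (-0.38, adjusted p = 0.155), did not pass the test. Among members with several probe sets, the other set had the opposite sign for Uqcrc2 (0.68 against -0.35) and Atp5me (0.05 against -0.26) here, and for Ndufa7 (-0.12 against 0.29) and Ndufv3 (0.10 against -0.25) in MS against CIA baseline, none of them called.

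At an unadjusted p under 0.05 the healthy rats had 3 members higher (11.9% of all probe sets) and 9 lower (12.4%). Both 34-day arrays lay below the other 22 for Ndufa3, Ndufa11, Ndufb3 and Atp5mpl (4 of 77 against 2.32% of all probe sets), and above them for Ndufa7, Ndufb6 and Ndufc2 (3 against 7.47%). At baseline Ndufa7 was below all other arrays (1.55%) and Ndufa3 and Ndufs1 above (2.56%). The complex medians over 34 days were -0.09, -0.11, -0.17, 0.07 and -0.23 for I to V. B cell markers were at 0.86 and 0.86 at baseline and -0.72 and -0.66 at 34 days, and NK cell markers at 0.41 and 0.28 and -1.01 and -0.70. Whether these shifts bear on the members was not tested.

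CIA and NOCIA were compared at baseline, before any therapy. CIA baseline was higher for 64 of 74 subunits, where 51.3% of all probe sets were, with a median of 0.14 against 0.01 over all probe sets. For 45 of 77 members both CIA arrays were above both NOCIA arrays (28.6% of all probe sets) and for 5 below (23.1%). All 8 B cell genes were lower in CIA (median -0.61), and of 17 platelet genes (-0.31) and 11 erythroid genes (-0.23) 1 each was above 0. Their part in this difference was not tested. Limma called 0 members where it called 0.00483% of all probe sets. Ndufa7, with a difference of 0.36 (SE 0.16), was the only member at an unadjusted p under 0.05, where 3.81% of all probe sets were. The medians were 0.17, 0.16, 0.10, 0.15 and 0.08 for complexes I to V. The pooled SD between replicates of such a median was 0.17 (I), 0.31 (II), 0.22 (III), 0.08 (IV) and 0.19 (V).

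At 1 hour limma called 0 members in any arm. For MS, 0.00967% of all probe sets were called (without the second MS rat 12 members were), and at an unadjusted p under 0.05 there were 2 members (8.30% of all probe sets), Ndufs1 (-0.78, SE 0.34) and Sdha (-0.75, SE 0.30). For PLA, 0% were called, and 3 members were past it (6.89%): Ndufs1 (-0.88), Sdha (-0.72) and Cox6b2 (-0.42). For MTX (0.0145% called), ANE (0.0338% called) and NOCIA against its own baseline (0.00483% called), 0 members were past it, where 1.24%, 10.8% and 3.57% of all probe sets were. Of 74 subunits, 11 were above CIA baseline in PLA (median -0.21), where 45.2% of all probe sets were. In MS 12 were (median -0.19, but 0.011 without the first rat), against 43.0%. In ANE 19 were (median -0.10), against 44.0%, and in MTX 37, against 51.6%. Both PLA arrays were below both CIA arrays for 41 of 77 members (31.7% of all probe sets) and above for 5 (20.3%). The PLA medians were -0.21, -0.30, -0.19, -0.02 and -0.22 for complexes I to V. The platelet means at 1 hour were 1.23 and -0.35 in MS, 0.95 and -0.39 in ANE and -0.21 and 1.01 in PLA, and their part in these values was not tested.

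The changes over 34 days in each arm were then set against that of healthy rats. For ANE, 1 member was called, where 2.86% of all probe sets were. The change of Ndufa7 was below that in NOCIA (difference of changes -0.92, SE 0.23, adjusted p = 0.0421), and Ndufa3 was just outside (0.84, SE 0.22, adjusted p = 0.0508). ANE had 6 members at an unadjusted p under 0.05 (15.8% of all probe sets). For MS, 0 members were called (0.0338% of all probe sets), and 8 were past an unadjusted 0.05 (19.9%), among them Ndufa7 (-0.65), Ndufs6 (-0.81) and Uqcrfs1 (-1.17). For MTX, 0 were called (0.0242%) and 2 were past it (7.50%), Ndufa3 (0.61) and Ndufa7 (-0.54). For PLA, 0 were called (0.00967%) and 4 were past it (9.80%), Ndufa3 (0.81), Ndufa11 (0.70), Ndufa7 (-0.62) and Ndufb3 (0.62). The NOCIA change is common to all of these, so that they are not independent of each other.

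**Figure D4:**
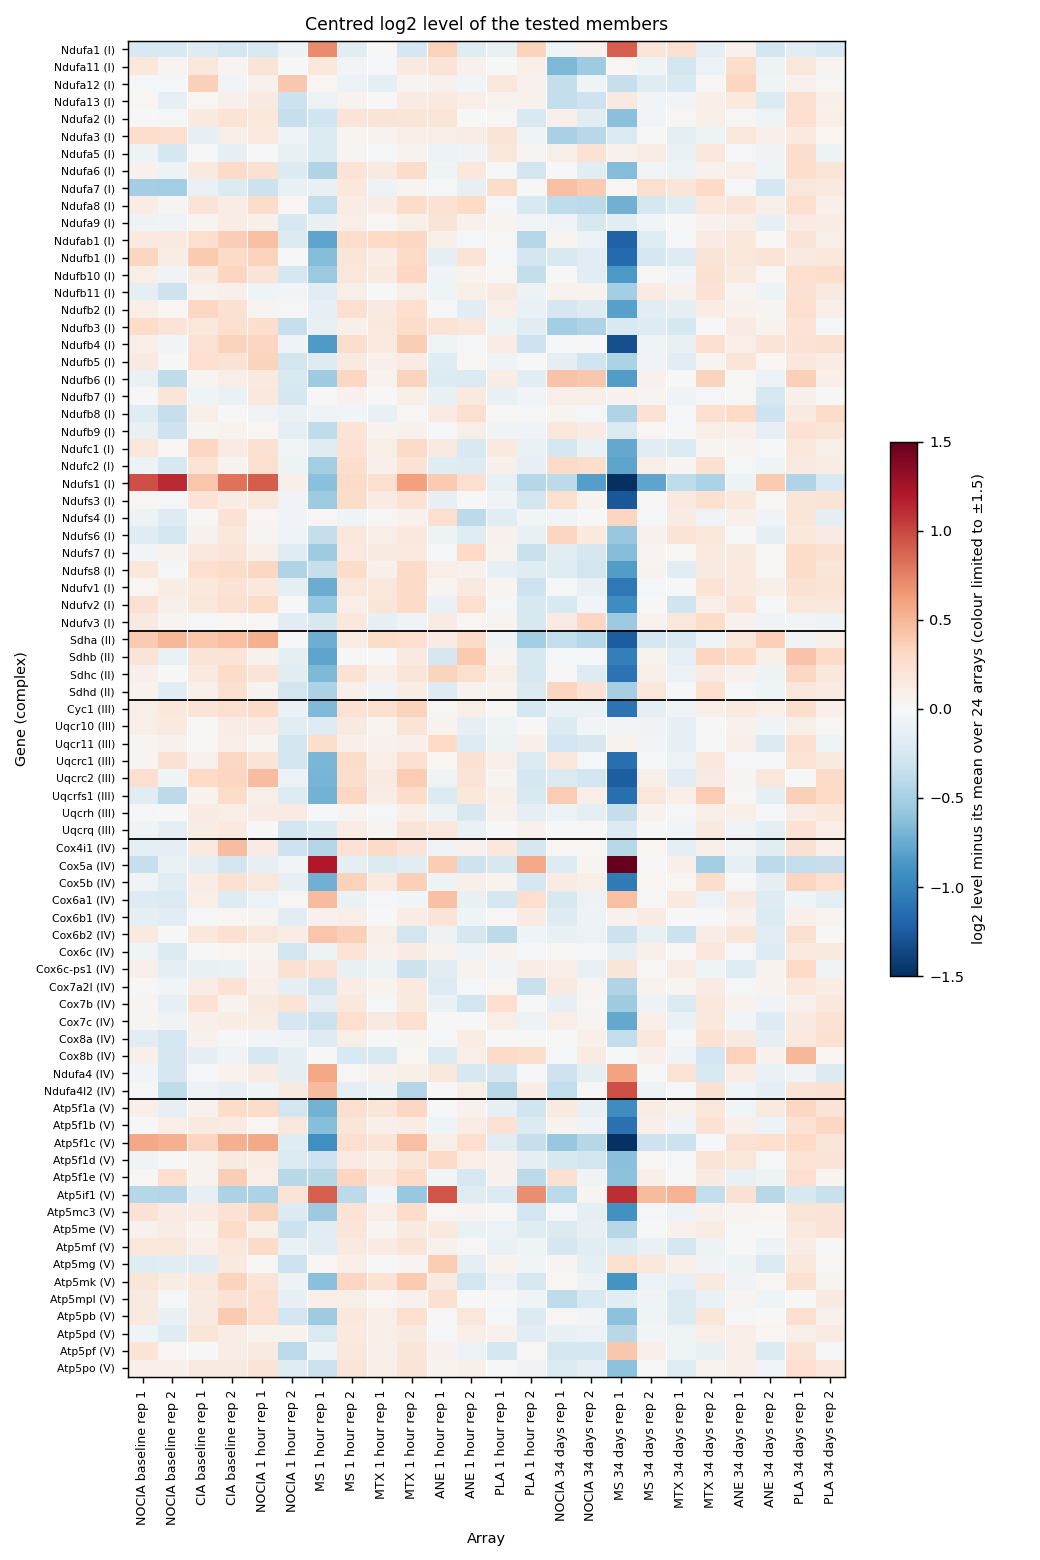
Centred log2 level of the 77 tested members (rows, by complex) in the 24 arrays (columns, by group), with the colour limited at 1.5 above and below. The first MS rat at 34 days has the most low values, 47 of 77 members being lowest there, of which 4 are subunits of complex IV.

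Genes related to the chain were read against the same background of 6.96% called in MS and 12% in healthy rats. Without the first MS rat or either CIA baseline rat limma called 0 probe sets in the MS comparison, so every MS call named here was then lost, and without single arrays 3.08% to 6.08% of all probe sets were called in healthy rats. Of 40 assembly factors tested, 9 were called lower and 1 higher in MS at 34 days (median -0.50), among them Sdhaf4, which helps build complex II (-1.54, SE 0.30), and Cox11, which helps build complex IV (0.99, SE 0.19). In healthy rats over 34 days 10 were lower and 5 higher (median -0.21), with Sco1, another copper factor of complex IV, at 1.98 (SE 0.33) and Bcs1l, a factor of complex III, at -1.07 (SE 0.20). Of 16 citric acid cycle and pyruvate dehydrogenase genes, Ogdh (-1.04) and Pdhx (-1.64) were called lower in MS (median -0.72). In healthy rats Idh2 (-1.29) and Ogdh (-1.08) were lower and Pdha1 (1.04) higher. Of 17 regulators of mitochondrial genes, Gabpb1 (-1.23) and Tfb1m (-1.08) were lower in MS, and Tfb1m (-1.06) and Polg (-1.38) in healthy rats. Of 18 glycolysis genes, Eno1 (0.52) and Ldha (0.95), the last step to lactate, were higher in MS, and in healthy rats Pfkm (-1.04) was lower and Pfkfb3 (1.11) higher. Of 13 mitochondrial carriers and 10 antioxidant genes, limma called 0 in both comparisons, with 6 and 3 of them at an unadjusted p under 0.05 in MS and 1 and 2 in healthy rats. Of all probe sets, 13.5% were higher and 23.6% lower at that level in MS, and 11.9% and 12.4% in healthy rats.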

How the data were processed

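PBMC were isolated on Ficoll and total RNA was hybridised to single-channel arrays, 1 rat each. Log2 values were deposited by the authors for 31099 probe sets, and the processing notes of the submitters name RMA and affy while the study's methods describe MAS5. The values ran from 2.18 to 15.02 with array medians of 5.49 to 5.58. Probe sets were named from the platform annotation: 20832 carried 1 gene symbol, 436 several and 9831 none, and 7 probe sets of several genes that would have matched were left out. The 57 control probe sets were left out.

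limma 3.58.1 (R 4.3.3; lmFit and eBayes, residual degrees of freedom 12) was fitted to all 24 arrays, 2 per group, without further normalization, over the probe sets above an array's 40th percentile (4.83 to 5.06) in at least 2 arrays. Benjamini-Hochberg adjustment ran over all tested probe sets. Tables were made in Python 3.11.15 with pandas 2.3.3. With 2 arrays a group the number of arrays limits the precision. The fit was tested on simulated data in which all groups had the same spread for a probe set. That test cannot check the effect of the wider spread of the MS rats.

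Members named were those called, the 2 of each complex with the largest statistic at an unadjusted p under 0.05 in each comparison or the largest F, the 4 Sdh genes, and the isoform pairs of complex IV. Members and lists were chosen with earlier results of these data known. RefSeq promoters matched 72 of 81 members by Entrez gene identifier. Ndufa4 and Ndufa4l2 were put in complex IV. Alternatives were the replicate block, a fit of the compared groups only, other filters, quantile normalization, limma-trend, array weights and the leaving out of arrays, single ones and 4 that stood apart.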

Additional observations from a re-analysis of the deposited data

Results flagged for a closer look

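The change of Ndufa7 over 34 days differed between ANE and healthy rats by a test of the difference itself (-0.92 on the log2 scale, limma adjusted p = 0.0421). Ndufa7 was at 9.96 and 9.86 in CIA baseline and 10.05 and 9.81 in ANE at 34 days, while healthy rats went from 9.56 and 9.54 to 10.52 and 10.45. The call was lost with any single array of these groups left out and with the replicate block, quantile normalization, limma-trend and the mean of all probe sets of the gene.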

How the results depend on the processing

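Of 642 alternative values of 37 results, 565 kept their call or stayed close to the first value. A median counted as close when it moved by less than its pooled SD between replicates (0.164). That is more than many of the first medians, so a median could turn sign and still count as close. No called member turned direction, but 15 values of the median over subunits turned sign, in 6 comparisons. These had first values from -0.19 (MS at 1 hour, 0.011 without its first rat) to 0.0084 (PLA at 34 days). The 5 members called for MS at 34 days against CIA baseline fell to 0 with array weights, without the 4 arrays that stood apart (the first MS rat at 34 days, the first MS and ANE rats and the second PLA rat at 1 hour), and with only the groups compared, and without single arrays ran from 0 (without either CIA baseline rat or the first MS rat) to 49 (without the second MS rat, the lone array then being assumed to vary like the other groups). For healthy rats over 34 days the 5 called became 9 with quantile normalization, 17 with array weights, 13 without the 4 arrays and 12 with only the groups compared, and 1 to 3 without single arrays. Leaving out single arrays gave 0 to 12 calls for MS at 1 hour, 0 to 49 for MS against PLA, 0 to 36 for MS against MTX, 0 to 26 for the MS change, 0 for the ANE change and 0 to 5 for the F-test. For the ANE change the 1 call became 0 with the replicate block, 2 with no filter, 0 with limma-trend, 14 with array weights, 8 without the 4 arrays and 11 with only the groups compared. For the PLA change the 0 calls became 1 with quantile normalization, 5 with array weights, 2 without the 4 arrays and 5 with only the groups compared. The F-test gave 4 with quantile normalization, 8 with array weights and 5 without the 4 arrays. Array weights also gave 1 call for CIA against NOCIA baseline, 3 for MTX and 2 for PLA at 34 days, and 2 for the MTX change. The replicate block left 36 of 37 results the same. The replicate numbers do not pair the samples, which came from different rats, and 25 of 66 pairs of groups correlated over 0.1.

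The median over subunits for MS at 34 days against CIA baseline was -0.14 without the 4 arrays and -0.70 to -0.14 without single arrays. Without the 4 arrays it was 0.011 for MS at 1 hour, -0.17 for MS against PLA, -0.021 for MS against MTX and -0.069 for the MS change, and without single arrays -0.41 to 0.011, -0.68 to -0.17, -0.61 to -0.021 and -0.66 to -0.069. The cause was not tested. Of 147 values of the called members, 92 kept the call. Leaving Cox6c-ps1 out of the complex IV medians was decided after seeing the data. Keeping it in changed 1 of 36 values, the complex IV median of MS against MTX at 34 days (-0.02).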
